A study of Saccharomyces cerevisiae with 6 samples.

Results

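The genes described are those for proteins of the small subunit of the yeast cytosolic ribosome, named RPS with a number and, where the gene is duplicated, the letter A or B. They were found by that pattern in the symbols of the array's annotation, which gave 55 of the 5711 genes measured. The 55 genes form 24 pairs of A and B copies and 7 genes without a copy. The pattern uses names only and no measured value.

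The small subunit binds messenger RNA, scans it for the start codon and holds the decoding centre, where transfer RNA is matched to the codon. Its proteins sit on the 18S ribosomal RNA in a head and a body with a platform. In budding yeast the genes for ribosomal proteins are among the most heavily transcribed, and they are known to be expressed together under the factors Rap1, Fhl1, Ifh1 and Sfp1, with nutrient supply acting through the TOR and protein kinase A pathways. Most of them are kept as a pair of copies from an ancient duplication of the genome.

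Transcripts were measured in ssy1KO, ssy1T9 and wt yeast on 6 arrays with a Cy5 and a Cy3 channel. The labels name S288C, a common laboratory strain, beside wt only. The gene SSY1 encodes a sensor of external amino acids in the plasma membrane. By its name ssy1KO lacks this gene, ssy1T9 carries another allele that the labels describe no further, and the series title speaks of a natural variant that acts on expression. The sources used here state neither the growth medium nor how many clones or cultures were taken. Each of the 3 strain pairs was put on 2 arrays with the dyes exchanged. Array 1 has wt in Cy5 for ssy1KO/wt and ssy1T9/wt, and ssy1T9 in Cy5 for ssy1KO/ssy1T9. In array 2 the dyes are reversed.

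Values are log ratios centred on the median gene of each array, so a change is relative to the typical gene. They are taken as log2, which the sources used here do not state, and every fold rests on it. The direction is likely and not stated: it was chosen so that the SSY1 transcript is lower in ssy1KO, which then holds for each of the 4 arrays with that strain, at -1.65 and -1.10 on ssy1KO/wt arrays 1 and 2 and at -1.86 and -1.87 on ssy1KO/ssy1T9 arrays 1 and 2. A gene is called when its Benjamini-Hochberg adjusted p in limma's moderated test, taken over all 5711 genes, is under 0.05. No intensities were given, so the transcript level of one RPS gene cannot be set against that of another.

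The arrays did not show the RPS genes alike. On ssy1KO/wt array 1 all 55 lay below 0, with a median of -0.54 and a range of -1.56 to -0.11. On ssy1KO/wt array 2, 24 lay below 0, with a median of 0.04 and a range of -0.45 to 0.80. The ssy1T9/wt arrays were closer to each other: 54 genes lay below 0 on array 1 (median -0.52) and 46 on array 2 (median -0.37). Between the mutants the sign turned with the dyes, as the median of ssy1KO over ssy1T9 was -0.26 on array 1, with 49 genes below 0, and 0.32 on array 2, with 3 below 0. Set as Cy5 over Cy3, the RPS genes therefore read above the typical gene on both arrays of the mutants, with 0.26 and 0.32.

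**Figure D1:**
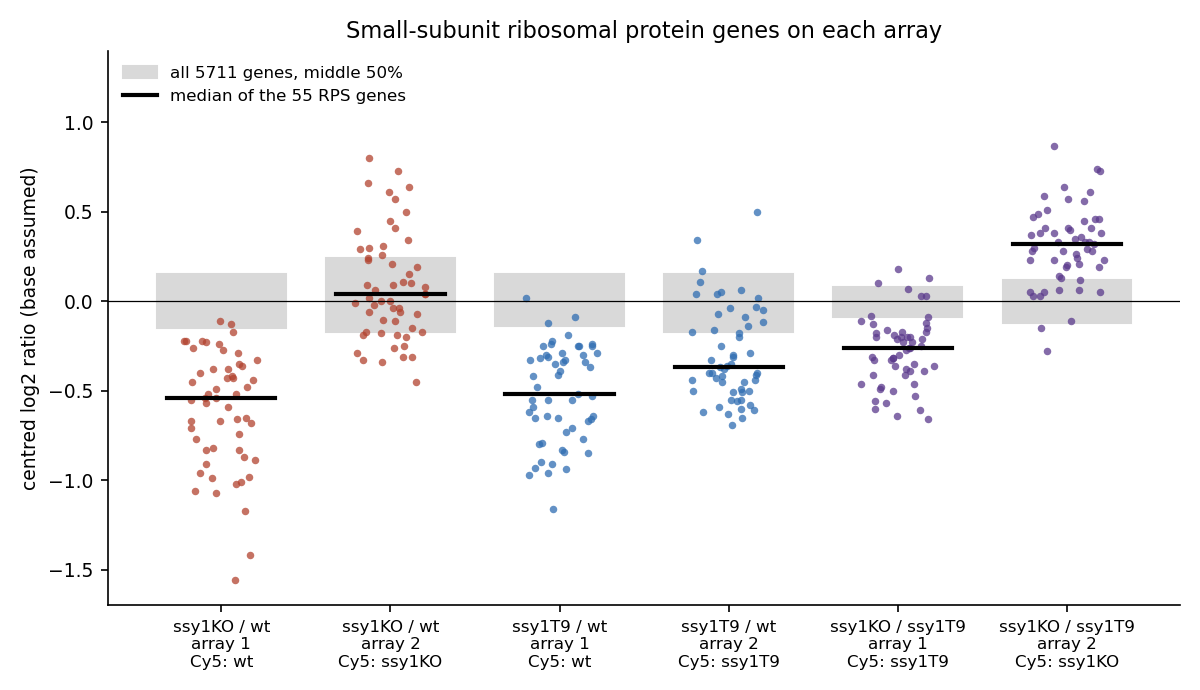
Centred log2 ratio of the 55 RPS genes on each of the 6 arrays (points), with their median (black line) and the middle 50% of all 5711 genes (grey box). Below each column stand the ratio's direction, the array and the strain in Cy5. All 55 points lie below 0 on ssy1KO/wt array 1, 54 on ssy1T9/wt array 1 and 46 on ssy1T9/wt array 2, and they lie around 0 on ssy1KO/wt array 2, and mostly on opposite sides of 0 on the arrays of the mutants.

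A dye difference of each gene was therefore estimated in the same fit as the strain differences. This dye term, in log2 Cy5 over Cy3, was above 0 for 51 of the 55 RPS genes, with a median of 0.22 and a range of -0.05 (RPS28B) to 0.69 (RPS30B). Over all genes its median was 0.005. The part of this dye difference in the counts of called genes was not tested beyond the fits given with and without the dye term. Within a strain pair, the mean of both arrays as Cy5 over Cy3 had a median of 0.31 for ssy1KO/wt, 0.08 for ssy1T9/wt and 0.29 for ssy1KO/ssy1T9, so the dye difference was not the same in each pair, while the fit assumes 1 value per gene. Because each pair holds both dye orders, the dye term does not shift the fitted strain differences, but it takes the dye difference out of their error.

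**Figure D2:**
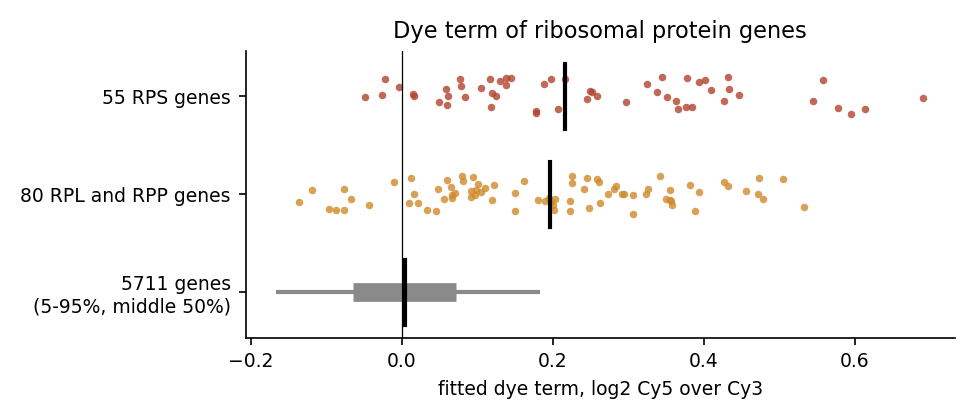
Fitted dye term, in log2 Cy5 over Cy3, of the 55 RPS genes and of the 80 RPL and RPP genes of the large subunit (points, black line at the median), and of all 5711 genes (thick bar for the middle 50%, thin line from the 5th to the 95th percentile). The median is 0.22 for the RPS genes, 0.20 for the RPL and RPP genes and 0.005 for all genes.

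In ssy1KO against wt, 41 of the 55 RPS genes fell and none rose, where 10.5% of all genes were called lower. All 55 fitted values lay below 0, and their median was -0.32, or 1.25-fold lower, against 0.00 over all genes. The values ran from -0.57 to -0.01, with an SD among genes of 0.12 beside a median SE of 0.09, so most neighbours in this order do not differ beyond their error. Of the 55 genes, 24 lay below 0 on both ssy1KO/wt arrays, 43.6% against 27.8% of all genes. The 24 were RPS0A, RPS1B, RPS3, RPS6B, RPS7A, RPS7B, RPS9A, RPS10B, RPS14B, RPS16A, RPS16B, RPS17B, RPS19A, RPS19B, RPS22A, RPS23B, RPS25A, RPS25B, RPS26A, RPS26B, RPS27A, RPS28A, RPS28B and RPS31, and the arrays of the others did not go one way. Many called genes are thus not among the 24. Of 33 genes with a dye term of 0.15 or more in size, 27 were called and 8 lay below 0 on both ssy1KO/wt arrays. Their medians on these arrays were -0.77 and 0.21. Of the other 22 genes, 14 were called and 16 lay below 0 on both, with medians of -0.32 and -0.14. The dye term was fitted from the ssy1KO/wt arrays among others, and their dyes were exchanged. A large dye term thus sets a gene's values on them apart by construction. The counts below 0 on both and these medians therefore follow in part from the split, and say nothing separate about the calls. RPS1B, RPS3, RPS6B, RPS7A, RPS7B, RPS16A and RPS27A are among the 24 but were not called. These arrays alone, fitted without a dye term, gave a median of -0.27. No RPS gene was called there, where 47 of all genes were called lower.

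The largest fall in ssy1KO was in RPS11B, whose protein binds 18S rRNA in the body. It read -1.07 and 0.09 on the ssy1KO/wt arrays, -0.97 and -0.40 on the ssy1T9/wt arrays, and -0.46 and 0.37 on the ssy1KO/ssy1T9 arrays. The ssy1KO/wt arrays thus differ in sign, though 0.09 lay between the quartiles of all genes on array 2, -0.17 and 0.24. The fitted value of RPS11B was -0.57 (SE 0.09, adjusted p = 2.1e-05), 1.48-fold lower. RPS4B, for another protein of the body, read -1.42 and 0.09 on the ssy1KO/wt arrays and was fitted at -0.49 (SE 0.12). Without ssy1KO/wt array 1 it was at -0.11 (adjusted p = 0.536 in limma's fit), and with robust regression at -0.21 (adjusted p = 0.0506), neither of them called. RPS30A, for a protein made with a ubiquitin-like extension in mammals but without one in yeast, had the widest gap of the 55 between these arrays, with -1.56 and 0.66, a fitted value of -0.44 and a dye term of 0.58. It was at -0.08 without ssy1KO/wt array 1 (adjusted p = 0.82 in limma's fit), at -0.79 without array 2, and no longer called with robust regression or without ssy1KO/ssy1T9 array 1. RPS29A, for a zinc-binding protein of the head, read -0.96 and 0.11 and was fitted at -0.47, and at -0.41 without array 1 (adjusted p = 0.0577), where it was not called.

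The other leading genes in ssy1KO lay below 0 on both ssy1KO/wt arrays, RPS17B and RPS25A only slightly on the array with ssy1KO in Cy5. RPS26A and RPS26B encode a protein at the exit of the mRNA channel. RPS26A read -0.44 and -0.20 on the ssy1KO/wt arrays, and RPS26B -0.40 and -0.29. Their fitted values were -0.48 (SE 0.10, adjusted p = 7.9e-04) and -0.44 (SE 0.10, adjusted p = 0.00144), and their dye terms were 0.12 and 0.06. RPS17B, for a protein of the head, read -0.83 and -0.06 and was fitted at -0.47 (SE 0.08). RPS25A, for a head protein used in initiation at internal entry sites, read -0.71 and -0.06 and was fitted at -0.43 (SE 0.08). The dye terms of RPS17B and RPS25A were 0.345 and 0.25. Their -0.06 on the ssy1KO/wt array with ssy1KO in Cy5 lay between the quartiles of all genes there, -0.17 and 0.24.

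At the other end, RPS0B, RPS7B, RPS3 and RPS23A changed least in ssy1KO. RPS0B, for a protein on the back of the body, read -0.22 and 0.57 on the ssy1KO/wt arrays and was fitted at -0.01 (adjusted p = 0.971). RPS7B read -0.11 and -0.04, was fitted at -0.05, and had a dye term of -0.003. RPS3, for a protein at the entry of the mRNA channel, read -0.17 and -0.11 and was fitted at -0.07. RPS23A, for a protein of the decoding centre, read -0.36 and 0.00 and was fitted at -0.08. None of these 4 passed the test.

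In ssy1T9 against wt, 47 of the 55 RPS genes fell and none rose, where 12.1% of all genes were called lower. The median was -0.38, or 1.30-fold lower, with a range of -0.61 (RPS11B) to 0.04 (RPS7B) and an SD among genes of 0.14. On both ssy1T9/wt arrays 46 of the 55 genes lay below 0, 83.6% against 29.5% of all genes. RPS7B lay above 0 on both, and the arrays of RPS4A, RPS7A, RPS8A, RPS8B, RPS10A, RPS20, RPS22B and RPS23A did not go one way. These arrays alone, fitted without a dye term, gave a median of -0.42. No RPS gene was called there, and 25 of all genes were called lower.

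**Figure D3:**
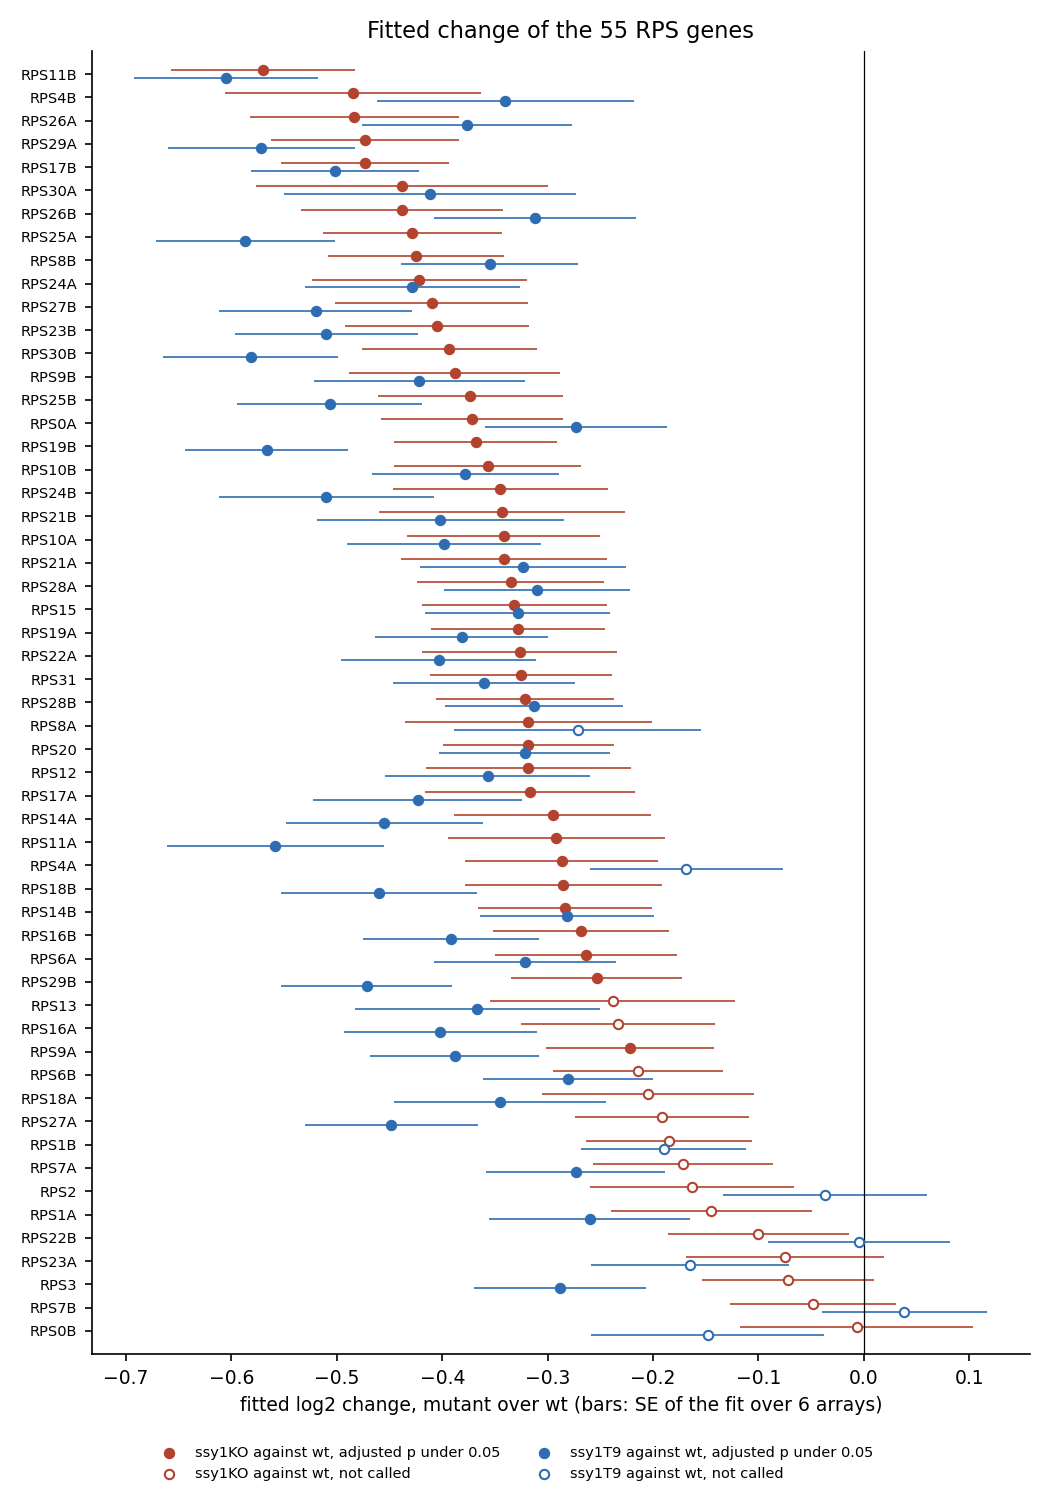
Fitted log2 change of each of the 55 RPS genes in ssy1KO (red) and ssy1T9 (blue) against wt, with bars for the SE of the fit over 6 arrays. Filled points passed the adjusted p and open points did not, and all points but that of RPS7B in ssy1T9 lie below 0.

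RPS11B led the falls in ssy1T9 as well, fitted at -0.61 (SE 0.09, adjusted p = 8.9e-06) from the array values above. RPS25A read -0.71 and -0.55 on the ssy1T9/wt arrays and was fitted at -0.59 (SE 0.08, adjusted p = 9.6e-06). RPS30B read -1.16 and -0.07 and was fitted at -0.58, with the largest dye term of the group at 0.69. RPS29A read -0.80 and -0.44 and was fitted at -0.57.

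RPS19B, whose human counterpart is the gene most often mutated in Diamond-Blackfan anaemia, read -0.79 and -0.41 on the ssy1T9/wt arrays and was fitted at -0.57 (SE 0.08, adjusted p = 4.1e-06). RPS11A read -0.65 and -0.61 and was fitted at -0.56, and at -0.30 without ssy1T9/wt array 2. RPS11A and RPS24B were not called with robust regression. RPS27B, for a zinc-binding protein of the platform, read -0.59 and -0.36 and was fitted at -0.52. RPS24B read -0.91 and -0.31 and was fitted at -0.51, the same value as RPS23B. All of these genes lay below 0 on both arrays of the pair.

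Least changed in ssy1T9 were RPS22B, RPS2, RPS7B and RPS0B, none of which passed. RPS22B, for a protein of the body, read -0.09 and 0.06 on the ssy1T9/wt arrays. RPS2, for a protein near the mRNA entry, read -0.19 and -0.17 there but was fitted at -0.04 (adjusted p = 0.826), since all 6 arrays enter the fit. RPS7B read 0.02 and 0.11, both above 0. RPS0B read -0.22 and -0.44 and was fitted at -0.15 (adjusted p = 0.359).

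Both mutants were compared with the same wt, and all values come from 1 fit, so their likeness is no separate evidence. Side by side, 39 RPS genes were called lower in both mutants, 2 in ssy1KO alone (RPS4A and RPS8A), 8 in ssy1T9 alone and 6 in neither. The 8 were RPS13, RPS16A, RPS6B, RPS18A, RPS27A, RPS7A, RPS1A and RPS3, and the 6 were RPS0B, RPS1B, RPS2, RPS22B, RPS23A and RPS7B. Over all genes 10.5% were called lower in ssy1KO and 12.1% in ssy1T9. The share of all genes called lower in both mutants is not given here, so the 39 cannot be set against it. On all 4 arrays of a mutant with wt, 22 of the 55 genes lay below 0, as did 924 of all 5711. No RPS gene was changed 1.5-fold or more in ssy1KO, and 2 were in ssy1T9, RPS11B and RPS25A.

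The test of the difference between the mutants called none of the 55 genes in limma's fit, where 0.298% of all genes were called in either direction. None was called under the 17 other settings either. The median of ssy1KO over ssy1T9 was 0.06, and 39 genes lay above 0, the side on which the fall in ssy1T9 was the larger. Of all 5711 genes, 2982 lay above 0. The split of the RPS genes depended on the setting. As reported 16 of them lay below 0, and the other settings gave from 10 (without ssy1T9/wt array 1) to 27 (without ssy1KO/wt array 2). An unadjusted p under 0.05 was reached by 7 of the 55 RPS genes and by 310 of all 5711. RPS27A was foremost among them, with 0.13 and 0.38 on the ssy1KO/ssy1T9 arrays, a fitted difference of 0.26 (SE 0.08) and an adjusted p of 0.485. RPS27A fell in ssy1T9 (-0.45) and was at -0.19 in ssy1KO (adjusted p = 0.0946). From the ssy1KO/ssy1T9 arrays alone the median was 0.02. At the median SE over all genes, 0.08, a 95% interval reaches 0.17 to either side on the log2 scale, and at the median SE of the RPS genes, 0.09, it is wider.

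The genes were also set out by the place of their proteins in the subunit. Of 21 genes for proteins of the head, 18 fell in ssy1KO (median -0.33) and 21 in ssy1T9 (median -0.39). Of 34 genes for the body and platform, 23 fell in ssy1KO (median -0.31) and 26 in ssy1T9 (median -0.35). Head genes that fell include RPS31, which encodes a ubiquitin fused to a ribosomal protein, at -0.33 in ssy1KO and -0.36 in ssy1T9. RPS15 and RPS20, also of the head, were at -0.33 and -0.32 in ssy1KO and at -0.33 and -0.32 in ssy1T9. Among all genes, 10.5% were called lower in ssy1KO and 12.1% in ssy1T9. The difference between head and body was not tested.

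Proteins with kin in bacteria and those without were also set side by side. Of 32 genes for proteins not found in bacteria, 26 fell in ssy1KO (median -0.34) and 28 in ssy1T9 (median -0.37). Of 23 genes for proteins shared by bacteria, 15 fell in ssy1KO (median -0.28) and 19 in ssy1T9 (median -0.39). Among those shared by bacteria are RPS14A and RPS14B, for a platform protein, at -0.30 and -0.28 in ssy1KO and at -0.46 and -0.28 in ssy1T9. RPS13 was at -0.24 in ssy1KO (adjusted p = 0.146) and fell in ssy1T9 (-0.37). Of the 7 genes without a second copy, RPS2, RPS3, RPS12, RPS13, RPS15, RPS20 and RPS31, 4 fell in ssy1KO and 6 in ssy1T9, with medians of -0.32 and -0.33. Among the 48 genes of a pair, 37 fell in ssy1KO and 41 in ssy1T9, with medians of -0.33 and -0.39. Beside all these counts, 10.5% of all genes were called lower in ssy1KO and 12.1% in ssy1T9. Differences between these groups were not tested.

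The RPS genes with the lowest and with some of the highest dye terms show how differently single genes read across the arrays. RPS28B, whose dye term was -0.05, read -0.29 and -0.31 on the ssy1KO/wt arrays and -0.12 and -0.55 on the ssy1T9/wt arrays. It was fitted at -0.32 in ssy1KO and at -0.31 in ssy1T9. RPS8A, whose dye term was 0.60, read -1.06 and 0.80 on the ssy1KO/wt arrays, a fitted -0.32 (adjusted p = 0.0495 in limma's test). On the ssy1T9/wt arrays RPS8A read -0.94 and 0.02, a fitted -0.27 that was not called (adjusted p = 0.0921). RPS30B, with the highest dye term at 0.69, read -1.17 and 0.45 on the ssy1KO/wt arrays. It was called in ssy1KO at -0.39 (adjusted p = 0.00104).

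The A and B copies of a protein were compared by the difference of their fitted changes. Since all 55 RPS genes lay below 0 in ssy1KO and all but RPS7B in ssy1T9, the signs of the copies say nothing about the pairs. Both copies were called lower in 15 pairs in ssy1KO and in 17 in ssy1T9, and 1 copy alone in 7 pairs in each mutant, with 37 and 41 of the 48 genes called, so these counts do not show that copies went together more than other genes. No copy was called in RPS7 and RPS1 in ssy1KO. The size of A minus B had a median of 0.08 in both mutants, beside a median SE of that difference of 0.14. It was under 0.1 in 13 pairs in ssy1KO and in 14 in ssy1T9. The A copy lay lower in 11 pairs and the B copy in 13, in each mutant. Close copies may share signal on the array, and the probe sequences were not used here, so agreement of copies is not agreement of independent measurements. Across the 24 pairs A and B values correlated with Pearson's r = 0.12 in ssy1KO and r = 0.41 in ssy1T9, and with Spearman's rho = 0.06 and 0.48, over points that share arrays.

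**Figure D4:**
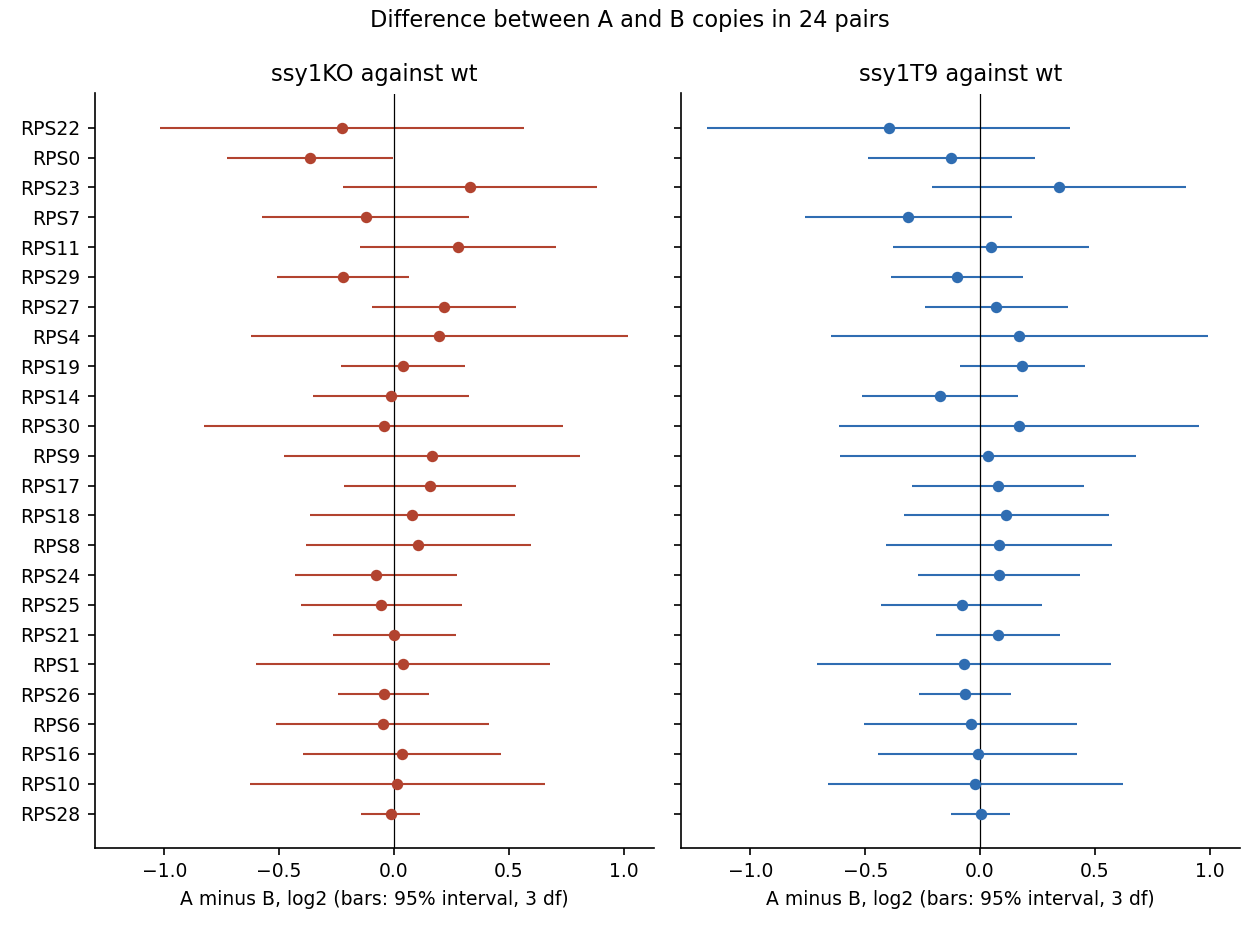
Difference between the A and B copies in fitted log2 change for 24 pairs, ordered by the larger size in either mutant, in ssy1KO (left) and ssy1T9 (right) against wt, with 95% intervals on 3 residual degrees of freedom. Only the interval of RPS0 in ssy1KO leaves out 0, from -0.73 to -0.002.

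The largest differences between copies were in RPS22, RPS0, RPS23 and RPS7. In RPS22, A minus B was -0.40 in ssy1T9 (95% interval -1.19 to 0.39) and -0.23 in ssy1KO (-1.02 to 0.57). RPS22A read -0.38 and -0.33 on the ssy1KO/wt arrays and -0.24 and -0.51 on the ssy1T9/wt arrays, whereas RPS22B read -0.24 and 0.06, and -0.09 and 0.06. In RPS0, A minus B was -0.37 in ssy1KO (-0.73 to -0.002) and -0.13 in ssy1T9 (-0.49 to 0.24). RPS0A read -0.55 and -0.02 on the ssy1KO/wt arrays and was fitted at -0.37. The interval that leaves out 0 is 1 of 24 in ssy1KO, and none of 24 did in ssy1T9.

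RPS23 ran the other way, with the B copy lower. RPS23B read -0.22 and -0.45 on the ssy1KO/wt arrays and -0.65 and -0.51 on the ssy1T9/wt arrays, and fell in both mutants (-0.41 and -0.51). RPS23A was not called, at -0.08 and -0.17. A minus B was 0.33 in ssy1KO (-0.22 to 0.88) and 0.35 in ssy1T9 (-0.21 to 0.90). In RPS7, for a protein of the platform that is also a target of ubiquitin ligases, RPS7A fell in ssy1T9 (-0.27) and RPS7B was at 0.04, a difference of -0.31 (-0.76 to 0.14).

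The smallest fitted differences between copies were in RPS28, RPS10, RPS16 and RPS6, and among these 4 only RPS28 was measured closely. RPS28A and RPS28B were at -0.34 and -0.32 in ssy1KO, and at -0.31 each in ssy1T9, with an SE of the difference of 0.04. RPS10A and RPS10B, for a protein of the beak of the head, were at -0.34 and -0.36 in ssy1KO and at -0.40 and -0.38 in ssy1T9. Their arrays differed, with A minus B at -0.44 and 0.35 on the ssy1KO/wt arrays and at -0.41 and 0.49 on the ssy1T9/wt arrays, and the SE of the RPS10 difference was 0.20 (95% interval -0.63 to 0.66 in ssy1KO). RPS16A and RPS16B, whose protein reaches the peptidyl site, were at -0.23 and -0.27 in ssy1KO and at -0.40 and -0.39 in ssy1T9. RPS6A and RPS6B encode the protein that is phosphorylated when TOR is active. They were at -0.26 and -0.21 in ssy1KO and at -0.32 and -0.28 in ssy1T9. The SE of A minus B was 0.14 for RPS16 and 0.15 for RPS6.

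RPS6B was printed 33 times on the array, and its 33 spots show how far single spots of this gene spread. The other 54 RPS genes have 1 spot each, and whether their error is alike was not tested. On ssy1KO/wt array 1 its spots averaged -0.48 ± 0.51 (SD, n = 33 spots) and ran from -2.93 to 0.19, and on array 2 they averaged -0.10 ± 0.20. On the ssy1T9/wt arrays they averaged -0.29 ± 0.33 and -0.12 ± 0.13. Of the 33 spots, 32 and 19 lay below 0 on the ssy1KO/wt arrays and 27 and 28 on the ssy1T9/wt arrays. Spots of 1 array are not replicates of a strain. With their median in place of the mean, the counts of called RPS genes stayed at 41 and 47.

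Genes of the large subunit gave close values. Of 80 RPL and RPP genes, without RPP1, which encodes a subunit of ribonuclease P, 57 were called lower in ssy1KO (median -0.30) and 59 in ssy1T9 (median -0.34), and none was higher. Their dye term had a median of 0.20. The proteins of the mitochondrial small subunit are encoded by another set of nuclear genes. Of the 32 measured, 3 were called lower in ssy1KO (median -0.07) and 5 in ssy1T9 (median -0.09). These are 9.4% and 15.6%, near the 10.5% and 12.1% of all genes called lower. The largest fall among them was in RSM23, at -0.29 in ssy1KO and -0.40 in ssy1T9.

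Of 23 genes for factors that assemble the small subunit or mature its rRNA, 14 fell in ssy1KO (median -0.29) and 16 in ssy1T9 (median -0.28), and none rose. These are 60.9% and 69.6%, beside 10.5% and 12.1% of all genes called lower. PRP43, a helicase gene of ribosome assembly and splicing, was at -0.49 and -0.43. TSR2, for the factor that delivers the RPS26 protein, fell too, at -0.47 in ssy1KO and -0.51 in ssy1T9. RIO2, for a kinase of late maturation, was at -0.44 and -0.39, and ENP1 at -0.44 and -0.42. On the ssy1KO/wt arrays these 23 genes had medians of -0.22 and -0.37, where the RPS genes had -0.54 and 0.04, and on the ssy1T9/wt arrays -0.25 and -0.38.

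Of 16 regulators of ribosomal protein genes, 1 was called in ssy1KO and 2 in ssy1T9. In each mutant 6.25% of them were called lower, beside 10.5% and 12.1% of all genes. TOD6, for a repressor of ribosome biogenesis genes, fell in both (-0.32 and -0.37), and YAK1, for a kinase that protein kinase A opposes, rose in ssy1T9 (0.25) and was at 0.07 in ssy1KO. The other 14, with RAP1, FHL1, IFH1 and SFP1 among them, did not pass in either mutant. Among 13 genes for initiation factors that bind the small subunit, 4 fell in ssy1KO (30.8%, median -0.16) and 3 in ssy1T9 (23.1%, median -0.15). TIF11, for the factor that takes part in scanning, was at -0.28 and -0.35. Among 6 genes for partners of the subunit, ASC1, for its beta-propeller protein on the head, fell in both (-0.24 and -0.32), and STM1, for a factor that clamps idle ribosomes, fell in ssy1KO (-0.24) and was at -0.15 in ssy1T9.

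In the R64 reference some RPS genes lie beside another ribosomal protein gene, a feature the choice of genes did not use. There are 7 such pairs of neighbours with both genes measured, and both were called lower in 5 of them in ssy1KO and in 6 in ssy1T9. In ssy1KO 74.5% of the RPS genes and 71.25% of the RPL and RPP genes were called lower, and in ssy1T9 85.5% and 73.75%. The counts therefore do not show that neighbours went together more than other ribosomal protein genes. RPS22A is paired with both RPS14B and RPL39, so the pairs are not all separate. RPS15 and its neighbour RPP2A, for a protein of the ribosomal stalk, were at -0.33 and -0.69 in ssy1KO and at -0.33 and -1.0 in ssy1T9. RPS9B and RPL21A were at -0.39 and -0.45 in ssy1KO and at -0.42 and -0.47 in ssy1T9. RPS14B and RPS22A, both of the small subunit, were at -0.28 and -0.33 in ssy1KO and at -0.28 and -0.40 in ssy1T9. RPS16A and RPL13B were not called together in either mutant, at -0.23 and -0.10 in ssy1KO and at -0.40 and -0.19 in ssy1T9.

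How many RPS genes passed depended on the handling of the arrays, though no setting called any of them higher in a mutant. Without centring, all genes had a median of 0.16 in ssy1KO and 0.17 in ssy1T9, the RPS genes lay at -0.16 and -0.21, and 9 and 15 of them were called lower. Without the dye term 8 and 13 were called lower, and in a test against a 1.2-fold change 1 and 5. Over all genes, the shares called lower in ssy1KO and ssy1T9 were 2.7% and 3.1% without centring. They were 5.0% and 6.0% without the dye term, and 1.4% and 1.8% in the 1.2-fold test. In that test, 1 of 55 in ssy1KO is near the share over all genes. Leaving out ssy1KO/wt array 1 gave 10 called in ssy1KO and 30 in ssy1T9, and leaving out ssy1T9/wt array 2 gave 29 and 25. Without ssy1KO/ssy1T9 array 1, 24 were called in ssy1KO. The shares of all genes called lower in ssy1KO and ssy1T9 were 4.5% and 8.0% without ssy1KO/wt array 1. They were 9.8% and 7.5% without ssy1T9/wt array 2. Without ssy1KO/ssy1T9 array 1 the share in ssy1KO was 7.1%. Under each array left out in turn, the same 9 genes stayed called in ssy1KO: RPS8B, RPS10B, RPS11B, RPS17B, RPS19B, RPS23B, RPS25A, RPS26A and RPS26B. In ssy1T9 18 did, RPS11A, RPS11B, RPS19A, RPS19B, RPS25A, RPS25B, RPS27A, RPS27B, RPS29A and RPS29B among them. The share of all genes that stayed called in this way is not given here.

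**Figure D5:**
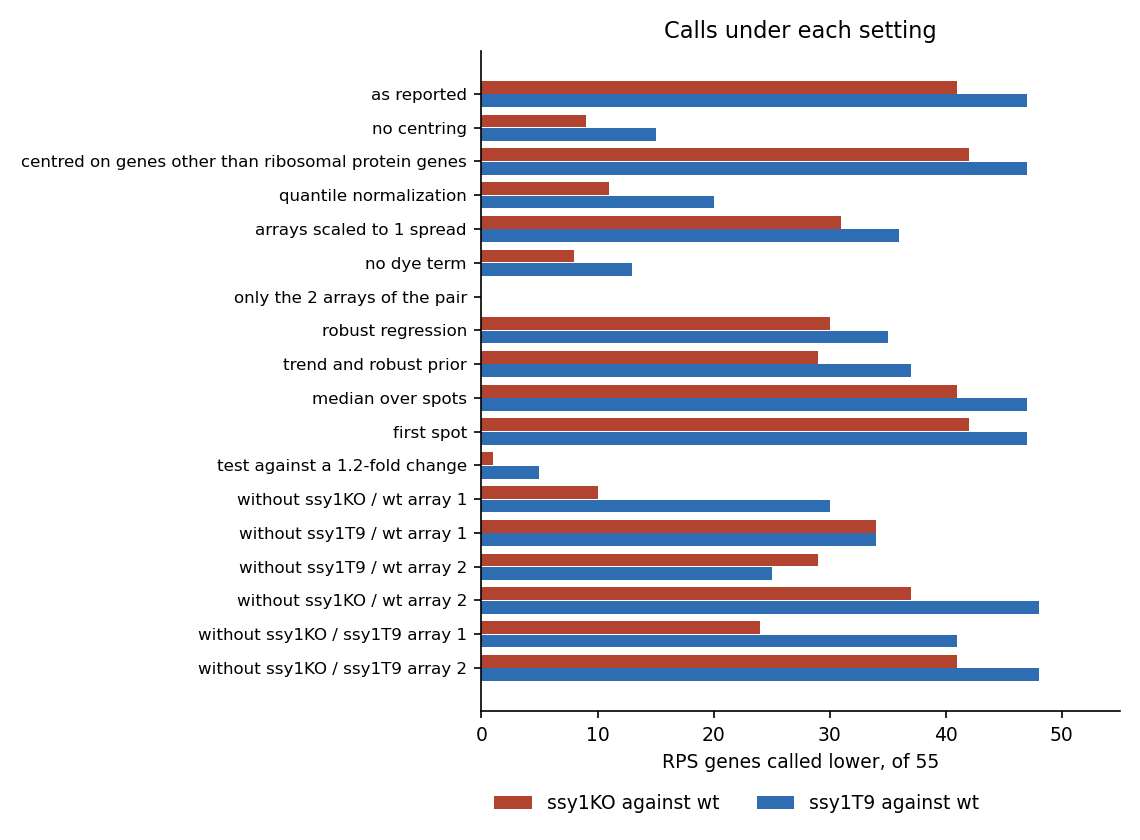
Number of the 55 RPS genes called lower in ssy1KO (red) and ssy1T9 (blue) against wt, as reported (41 and 47) and under each other setting. The counts are lowest from the 2 arrays of a pair alone (0 and 0) and in the test against a 1.2-fold change (1 and 5).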

How the data were processed

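The deposited value table holds 1 log ratio per spot and array, taken as log2; the authors' scanner, background correction, normalization, log base and ratio direction could not be read from any label or header. Of 7744 rows, 6116 have 1 gene symbol, 0 have several and 1628 are unnamed here and were not used. Symbols were updated by gene identifier to R64 names (6111 rows matched). Spots of 1 gene were averaged per array, giving 5711 genes, and each array was centred on its median gene. Column medians were -0.58, -0.35 (ssy1KO/wt arrays 1 and 2), -0.51, -0.08 (ssy1T9/wt) and -0.39, -0.33 (ssy1KO/ssy1T9). A linear model with a dye term and coefficients for ssy1KO and ssy1T9 was fitted to the 6 arrays with limma 3.58.1 under R 4.3.3, and variances were moderated with eBayes (residual degrees of freedom 3, prior 20.7); the mutants were compared by a contrast of that model. P-values are two-sided and adjusted over all genes. A minus B was fitted with the same model without moderation. Whether both arrays of a pair hold RNA of separate cultures is not stated, and the p-values reflect spread between arrays that could be purely technical. With so few arrays, precision is limited.

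Genes, lists and tests were chosen with earlier results of these data known. Named are the 8 largest and 4 smallest changes per mutant, the 4 largest and 4 smallest pair differences, and up to 4 called genes per related list; others were chosen after their values were seen. On simulated data for 5711 genes the fit recovered 67% of changes of 0.3 and 100% of changes of 0.6 in ssy1KO against wt, and called 8 unchanged genes. The simulated noise was independent between genes, with no dye difference and with changes in both directions. The RPS genes had dye differences that varied between strain pairs, so these rates do not carry over to them. The planned search of promoters for motifs was not run, because no sequences were used here. Arrays carry numbers given in accession order, so no replicates are paired.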

Additional observations from a re-analysis of the deposited data

How the results depend on the processing

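All 17 alternatives kept the median change of the RPS genes below 0 in both mutants. In ssy1KO against wt the count of 41 called lower became 9 without centring, 11 with quantile normalization, 8 without the dye term, 0 from the 2 arrays of the pair, and 1 against a 1.2-fold change, and ran from 10 to 41 with 1 array left out. In ssy1T9 the count of 47 became 15, 20, 13, 0 and 5 under the same settings, and ran from 25 to 48. The median in ssy1T9 was -0.21 without centring, where calls over all genes were 155 lower and 1807 higher in ssy1KO and 176 and 1838 in ssy1T9, against 597 and 789, and 691 and 803, as reported, and ran from -0.44 to -0.25 with 1 array left out. Over all genes, the shares called lower in ssy1KO and ssy1T9 were 5.0% and 7.3% with quantile normalization. They were 0.82% and 0.44% from the 2 arrays of a pair, and 1.4% and 1.8% against a 1.2-fold change. With 1 array left out they ran from 4.5% to 11.3% in ssy1KO and from 6.7% to 12.5% in ssy1T9. Other settings left both counts within 1.5 times. The cause of the lost calls was not tested. The 2 arrays of a pair hold fewer samples and were fitted without a dye term. The 1.2-fold test asks for a larger change. Some changes that were not called turned sign. Without centring, RPS0B was at 0.15, RPS22B at 0.058, RPS23A at 0.083, RPS3 at 0.087 and RPS7B at 0.11 in ssy1KO, and RPS0B at 0.023, RPS2 at 0.14, RPS22B at 0.17 and RPS23A at 0.0067 in ssy1T9. RPS0B was at 0.18 in ssy1KO from its 2 arrays, RPS3 at 0.0038 with quantile normalization, and RPS2 in ssy1T9 at 0.034 with quantile normalization, 0.013 with arrays scaled and 0.091 with robust regression. With 1 array left out, the ranges in ssy1KO were -0.31 to 0.13 for RPS0B, -0.17 to 0.13 for RPS23A and -0.13 to 0.0061 for RPS3, and in ssy1T9 -0.30 to 0.13 for RPS0B, -0.12 to 0.20 for RPS2, -0.072 to 0.056 for RPS22B and -0.012 to 0.076 for RPS7B. Some genes not called as reported became called lower: RPS0B in ssy1KO (-0.31, adjusted p = 0.0429) and ssy1T9 (-0.30, adjusted p = 0.0148) without ssy1KO/wt array 2, RPS23A in ssy1T9 (-0.36, adjusted p = 0.0098) without ssy1T9/wt array 2, and, with robust regression, RPS23A in ssy1T9 (-0.18, adjusted p = 0.0416) and RPS3 in ssy1KO (-0.11, adjusted p = 0.0447). No paired analysis was possible because the labels give no replicate numbers. Without intensities, no signal over background could be set beside these values.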
